A study of Homo sapiens with 14 samples.

Results

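TP63 and SOX2 both lie on the long arm of human chromosome 3, and the KMT2D peaks around them were taken from the peak list of 1 ChIP-seq library of SCC23 cells. The peaks were chosen by their summits, which had to lie within 100 kb of the gene, on GRCh37 (hg19). For TP63 the gene was set at 189.349 to 189.615 Mb, with an internal promoter near 189.507 Mb, and for SOX2 at 181.430 to 181.432 Mb. The rule found 17 peaks in the 466 kb window of TP63 and 2 peaks in the 202 kb window of SOX2, or 19 of the 13808 peaks of the list. The genes were picked with earlier results of these data known, and the presence of a peak depends on its p-value, so the values below are a description with no test.

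SCC23 is an established human HNSCC line, that is, a line of squamous carcinoma of the head and neck. The library came from wild-type cells (KMT2D-WT), immunoprecipitated with an antibody to KMT2D after 6 h without glucose, a condition that the sample label calls low glucose. The study also made KMT2D-KO cells with Cas9 and compared histone marks between the genotypes, and it used the KMT2D library to find where the protein sits. Whether these wild-type cells had received the control guide to LacZ was not given in the sources used here. Only this library of the 14 was analysed, there was no replicate, and no marker of the squamous cell type could be checked in a list of peaks.

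KMT2D is a histone methyltransferase that places H3K4me1, mainly at enhancers. TP63 encodes p63, a transcription factor of the p53 family that maintains the basal layer of stratified epithelia. Its upstream promoter makes the long isoforms with a transactivation domain (TAp63), whereas the internal promoter makes the shorter ΔNp63 isoforms that predominate in squamous epithelium and squamous carcinoma. SOX2, an HMG-box factor of stem cells and of the foregut and oesophageal lineage, often acts together with p63 in squamous carcinoma, and both genes lie in a part of chromosome 3 that is often gained there. In the RefSeq gene table (GRCh38.p14, from which no position was joined to a peak) the protein-coding neighbours of TP63 were TPRG1 and P3H2. SOX2 lay inside the span of SOX2-OT, a long non-coding RNA.

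No peak of the list lay at the start of TP63 or at its internal promoter. The summit nearest to the start of the gene was 43 kb upstream of it. That nearest to the internal promoter was 36 kb past this promoter. The summit closest to the start of SOX2 was 2 kb after it, at the 3′ end of this short gene. Gene positions are given to 1 kb, and the list holds only sites past its p-value threshold, so that weaker signal at these starts would not be seen. The bases before the upstream start of TP63, that of the long isoforms, and before the start of SOX2 are shown because no summit lay on them. They are the 250 bases before the start in RefSeq (GRCh38.p14, plus strand), at chr3:189631139-189631388 for TP63 and chr3:181711675-181711924 for SOX2. Capitals mark matches to CCAAT or GGGCGG, searched on both strands together with TATAAA.
TP63: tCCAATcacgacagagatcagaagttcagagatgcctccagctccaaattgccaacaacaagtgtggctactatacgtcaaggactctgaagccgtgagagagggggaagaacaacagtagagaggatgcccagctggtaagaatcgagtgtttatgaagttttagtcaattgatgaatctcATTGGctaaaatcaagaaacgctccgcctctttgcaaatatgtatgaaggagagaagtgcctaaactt
SOX2: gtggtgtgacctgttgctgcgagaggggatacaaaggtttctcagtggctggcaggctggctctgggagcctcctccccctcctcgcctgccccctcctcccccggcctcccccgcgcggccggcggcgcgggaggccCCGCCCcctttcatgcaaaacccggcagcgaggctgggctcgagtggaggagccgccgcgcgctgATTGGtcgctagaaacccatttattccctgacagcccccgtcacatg

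The TP63 stretch held 6 CG dinucleotides and 44.0% G or C, and 61.9% of the 35116 RefSeq promoter stretches of this length held as many CG or more. The SOX2 stretch was richer, with 20 CG and 68.8% G or C, and 32.4% of the stretches held as many. CCAAT was matched at 2 places before TP63 and 1 before SOX2 (32.0% of all stretches held it). GGGCGG was matched only before SOX2, at 1 place (42.6% of all). TATAAA was in neither (10.7% of all). The sequences of the peaks themselves were not analysed here, since the genome at hand was of another build.

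The 17 TP63 peaks lay mostly in the 3′ part of the gene and behind it. The 100 kb upstream held 1 peak. The long-isoform part, from the start of the gene to the internal promoter, held 2 peaks in 158 kb, or 1.27 per 100 kb. From the internal promoter to the end of the gene there were 5 peaks in 108 kb (4.63 per 100 kb), and the 100 kb downstream held 9. The stretch from the internal promoter to the gene's end is called the 3′ part here, by position alone. Which isoform its peaks go with was not tested. Peaks were assigned to TP63 and SOX2 by distance alone, and which gene they act on was not tested either. Thus 14 of the 17 summits lay past the internal promoter, 9 of them past the end of the gene. The summed fragments over summits followed the same split, with 2.93% upstream, 5.37% in the long-isoform part, 32.9% in the 3′ part and 58.8% downstream. Between these groups were stretches free of summits of 122 kb, 98.3 kb and 65.4 kb.

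**Figure D1:**
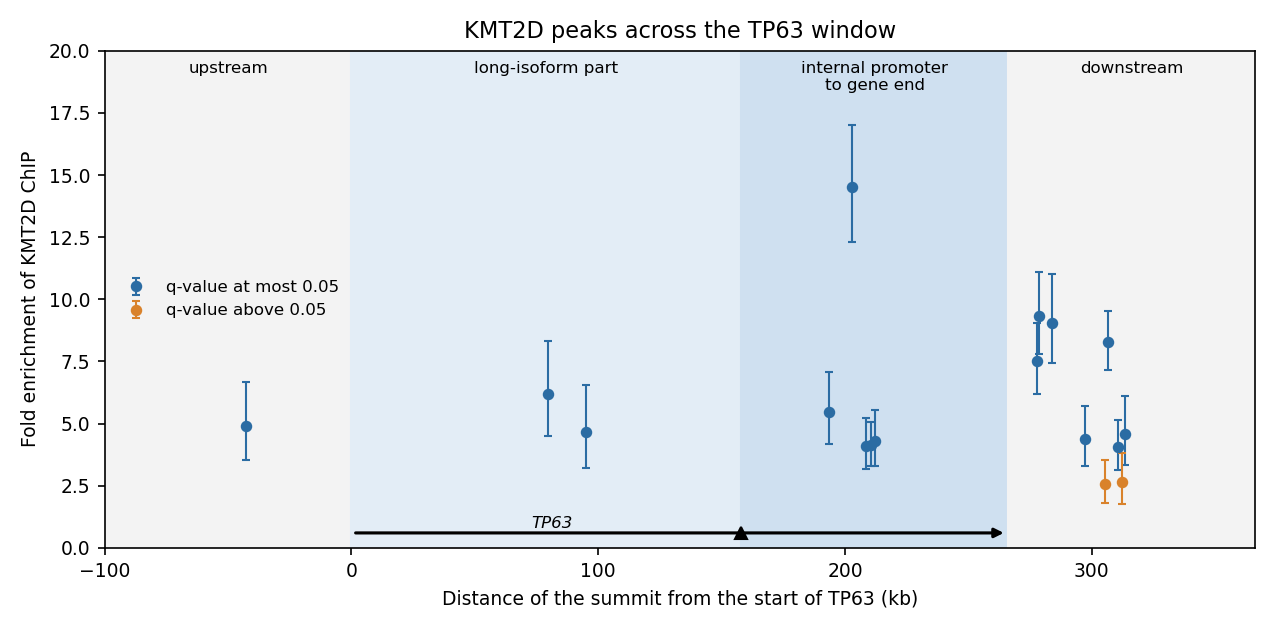
Fold enrichment of KMT2D ChIP at the 17 peaks of the TP63 window (y axis) against the distance of the summit from the start of TP63 in kb (x axis). Bars are 95% Poisson intervals of the fragment number, the arrow is the gene, the triangle its internal promoter, and shading marks the 4 stretches. The peak of 14.5 stands above the others and 9 peaks sit downstream of the gene.

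Fold enrichment is the ratio at the summit of the ChIP fragments, scaled to the control, to the local background, with a pseudocount of 1 added to each. The local background is the highest of the control coverage at the site, around it and genome-wide. The fragment numbers were rebuilt from the deposited values, and their intervals below are exact 95% Poisson intervals that take the background as known and cover counting error only. A q-value is the p-value after the adjustment made in peak calling, which was not over the listed peaks alone.

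Upstream and in the long-isoform part the peaks were few and moderate. The single upstream peak, at chr3:189306283-189306679, had 36 fragments over its summit (25.2 to 49.8) and a fold enrichment of 4.90 (3.53 to 6.66). The first peak of the long-isoform part, at chr3:189428440-189428816 and 80 kb into the gene, had 38 fragments and a fold enrichment of 6.18 (4.49 to 8.33). The other, at chr3:189444128-189444362 and named here after its values were seen, had 28 fragments and 4.66 (3.23 to 6.55). The intervals of these 3 peaks overlapped. Overlap is not a test of a difference, and the order of these peaks was not tested.

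The 3′ part held the peak with the highest fold enrichment at TP63. It lay at chr3:189551742-189552502, with its summit 45 kb past the internal promoter, and had 150 fragments (127 to 176) where the local background gives 7.88. Its fold enrichment was 14.5 (12.3 to 17.0), a value that 0.731% of the peaks in the list reached, and ranked 101 of 13136 on chromosomes 1 to 22 and X and 4 of 782 on chromosome 3. The interval of no other TP63 peak overlapped that of this peak, with its local background of 3 control fragments taken as known. The peak nearest to the internal promoter, at chr3:189542311-189543046, had 55 fragments and a fold enrichment of 5.48 (4.19 to 7.06). The other 3 peaks of this part followed within 10 kb of the leading summit, with 62, 84 and 54 fragments and fold enrichments of 4.10, 4.12 and 4.31. All 5 lay within 19.3 kb.

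The 9 downstream peaks reached from 12 to 47 kb past the end of the gene and came as a group of 3 and a group of 6. In the group of 3, the peak nearest to the end of the gene was at chr3:189625979-189626991, was 1013 bp wide and had 104 fragments and a fold enrichment of 7.51 (6.17 to 9.06). Its neighbour at chr3:189627177-189627948 had 121 fragments and 9.34 (7.79 to 11.1). The last of the 3, at chr3:189632500-189633050, had 101 fragments and 9.05 (7.42 to 11.0). These 3 and the broad peak of the next group took ranks 2 to 5 by fold enrichment among the TP63 peaks, and each of their intervals overlapped that of the next in rank.

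The group of 6 was uneven. Its broadest peak, at chr3:189655073-189656167 and 1095 bp wide, had 193 fragments (167 to 222), more than any other of the 782 peaks of chromosome 3. Its fold enrichment was 8.27 (7.16 to 9.51), over a local background that gives 21.0 fragments, and ranked 67 of the 782. No peak of chromosome 3 had a higher local background. The other 5 had between 23 and 61 fragments and fold enrichments between 2.56 and 4.57. The last of them, at chr3:189662262-189662775 and outermost in the window, had 40 fragments (28.6 to 54.5), a fold enrichment of 4.57 (3.35 to 6.12) and a q-value of 5.7e-05. Among them were the weakest peaks of the window, named here after their values were seen. The peak at chr3:189654114-189654303 had 31 fragments, a fold enrichment of 2.56 and a q-value of 0.97, and the peak at chr3:189661227-189661439 had 23 fragments, 2.64 and a q-value of 1.

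**Figure D2:**
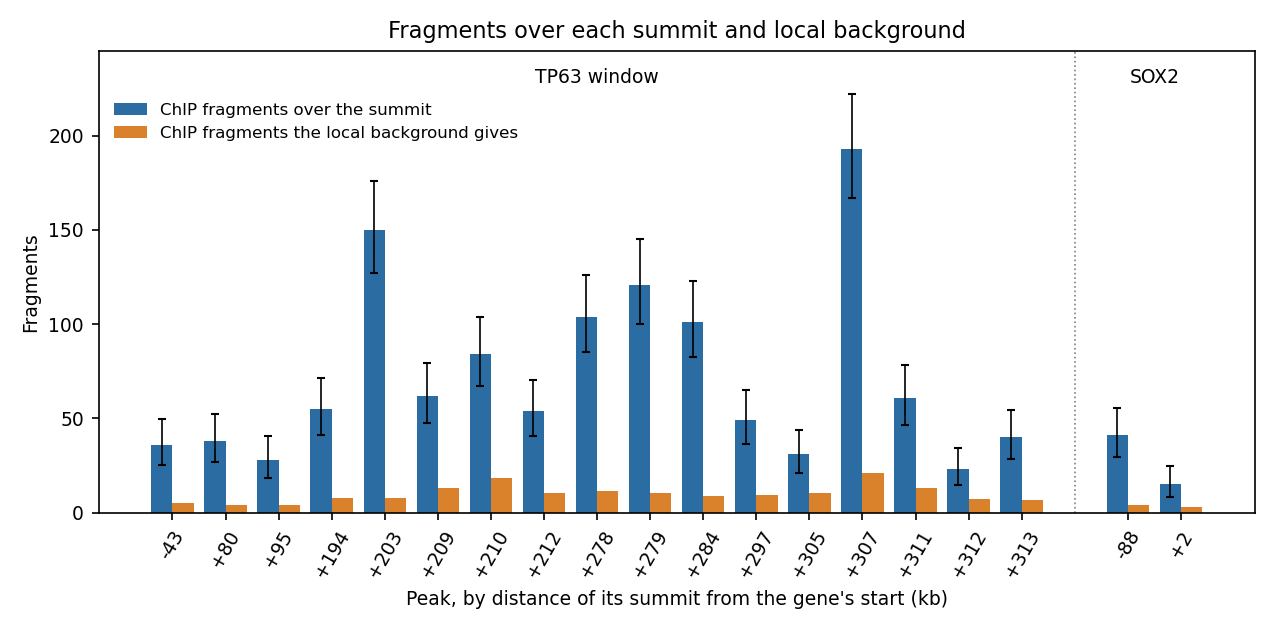
ChIP fragments over the summit (blue bars, with 95% Poisson intervals) and the ChIP fragments that the local background gives (orange bars) at the 17 TP63 and 2 SOX2 peaks, in order along the chromosome. The x axis gives the distance of the summit from the start of the gene in kb and the y axis counts fragments. The highest bars are 193 and 150 fragments, and the local background reaches 21.0 at the former.

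In the order of fold enrichment, 15 of the 16 pairs of neighbouring TP63 peaks had overlapping intervals, and only the step from the leading peak to the next did not. These intervals take the background as known, and that of the leading peak was 3 control fragments. Whether the step would hold with the counting error of the control was not tested. The fragment number went with the width of the peak among the 17 (Spearman's rho 0.84) with the local background (0.66) and with fold enrichment (0.62). Among all 13136 peaks of chromosomes 1 to 22 and X these were 0.48, 0.47 and 0.75. All points come from the same ChIP library and control, and a higher background also takes more fragments to pass, so these are descriptions.

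Set beside the whole list, the TP63 peaks carried many fragments at a moderately higher fold enrichment. The median was 55 fragments over the summit at TP63 (range 23 to 193), against 25 in the list and 26 on chromosome 3. Median fold enrichment was 4.66 (range 2.56 to 14.5), against 3.93 and 4.09, and 34.4% of the list reached 4.66. Of the 17 peaks, 12 lay above the upper quartile of the list in fragments (39.0), but 7 did so in fold enrichment (5.39). Of the 17 peaks, 15 had q-values no higher than 0.05, as had 58.5% of the list. The TP63 peaks were 190 to 1095 bp wide with a median of 522 bp, and 2 of the 17 were wider than 1000 bp (5.48% of the list).

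The local background, known only at the peaks, was raised at those past the internal promoter, and it moved with the fragment numbers. It was at least 2 times the genome-wide level at 14 of the 17 TP63 peaks, against 18.6% of the list, and its median was 3.18 times that level (range 1.37 to 7.30), against 1.17 on chromosome 3. The 3 peaks upstream and in the long-isoform part lay at 1.37 to 1.83 times. The 5 peaks of the 3′ part lay at 2.74 to 6.39 times and the 9 downstream peaks at 2.33 to 7.30 times. The 14 raised peaks followed each other with no other peak between them over 120 kb, from summit position 189542569 to 189662429. They formed the longest such run on chromosome 3, where the next held 6. The run includes 65.4 kb without a summit, where the background is not known. The next peaks on either side of the run lay at 1.37 and 1.76 times.

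At 8 of these 14 peaks, among them all 5 of the 3′ part, the background came from the site itself. It was a whole number of control fragments there, between 3 and 8. The counting error of such small numbers is large and is not given here. The upstream peak had 2 control fragments and 1.83 times the genome-wide level, and the leading peak 3 and 2.74 times. A single control fragment can thus decide whether a peak counts as raised. At the other 6 of the 14 peaks, all downstream of the gene, the background came from a wider stretch. At 3 of them only the 10 kb around the summit can give the value, with 183, 147 and 139 control fragments (95% Poisson intervals 157 to 212, 124 to 173 and 117 to 164), where the genome-wide level gives 59.7. At each of the 2 peaks of the long-isoform part the same measure was 82 (65.2 to 102). Which of the study's libraries served as the control is not given in the sources used here. The part of the raised control in the number and height of these peaks was not tested.

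**Figure D3:**
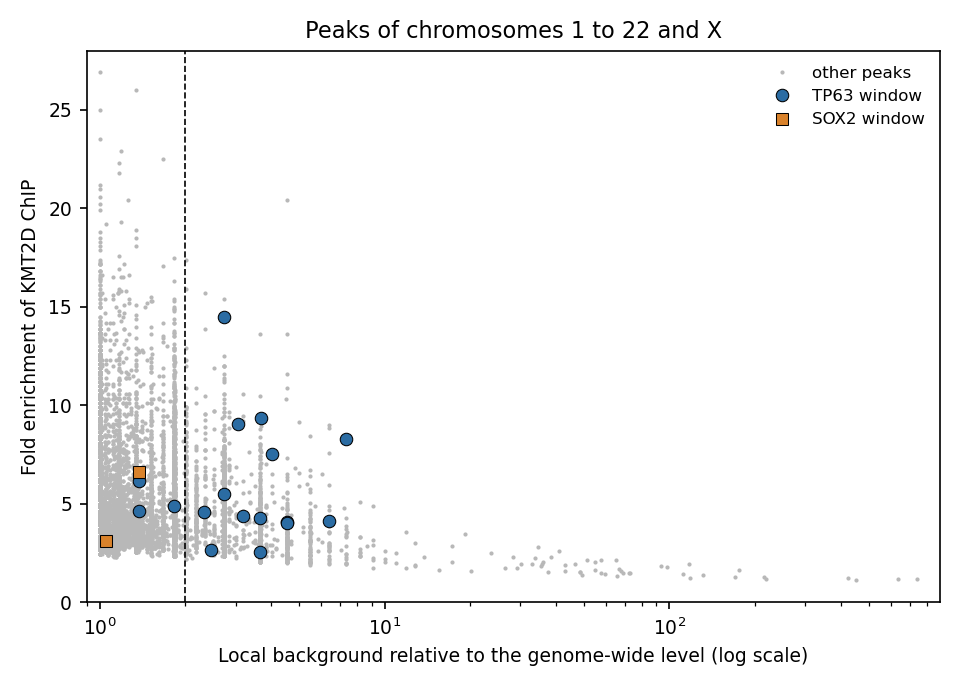
Fold enrichment (y axis) against the local background relative to the genome-wide level (x axis, log scale) for the 13136 peaks of chromosomes 1 to 22 and X. TP63 peaks are blue circles, SOX2 peaks orange squares and other peaks grey points, and the dashed line marks 2 times the genome-wide level. To its right lie 14 of the 17 TP63 peaks and neither SOX2 peak.

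The choice of background changed the order of the TP63 peaks. The fold enrichment was also computed against the genome-wide level. The broad downstream peak then came first with 35.5 and the leading peak of the 3′ part second with 27.7. The median of the 17 went from 4.66 to 10.5, and that of the list from 3.93 to 5.02. The peak of the 3′ part with 84 fragments moved from rank 13 with 4.12 to rank 6 with 15.7. The 3 peaks upstream and in the long-isoform part changed least, by factors of 1.19 to 1.43, and took ranks 13, 14 and 16. These factors follow from the local background of each peak alone, so they restate it.

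**Figure D4:**
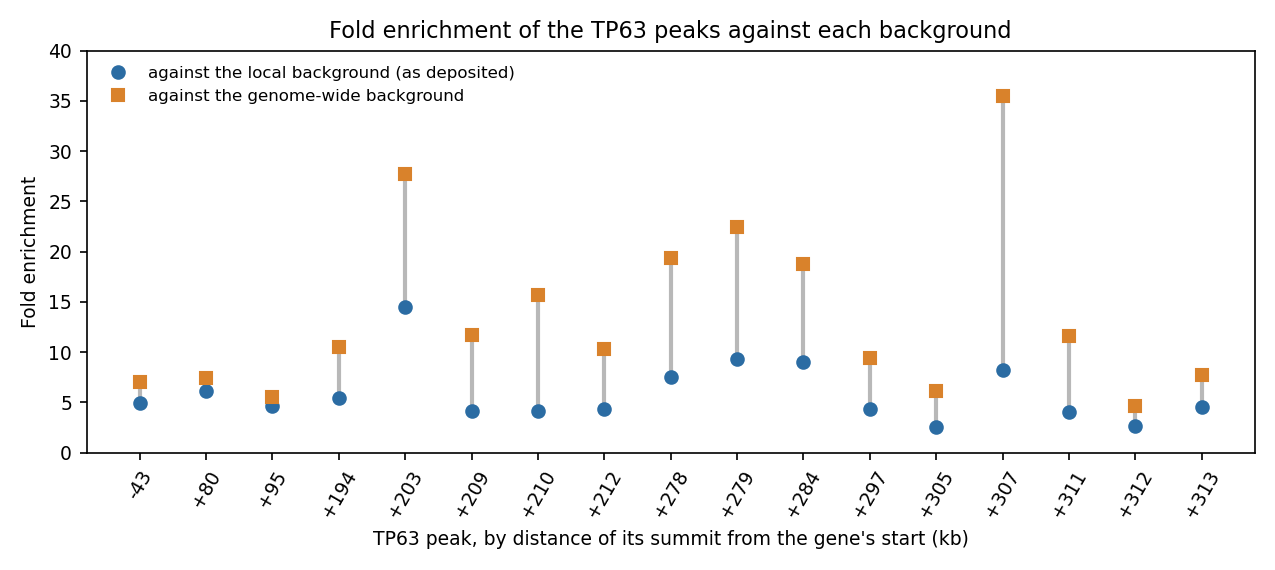
Fold enrichment of the 17 TP63 peaks as deposited, against the local background (blue circles), and recomputed against the genome-wide background (orange squares), in order of distance of the summit from the start of TP63 (x axis, kb). Grey lines join the values of a peak, and the longest runs from 8.27 to 35.5.

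Peaks that lie close together over long stretches are how enhancer domains appear in such lists, so neighbouring peaks were stitched over gaps of up to 12.5 kb. At TP63 this gave 3 clusters of at least 3 peaks that held 14 of the 17 peaks, while 33.8% of the peaks on chromosomes 1 to 22 and X lay in such clusters. The cluster in the 3′ part ran over 19.3 kb at chr3:189542311-189561591 with 5 peaks. Of the 1071 clusters, 24.9% held as many or more. The first downstream cluster held 3 peaks in 7.07 kb (chr3:189625979-189633050) and the second 6 in 16.7 kb (chr3:189646094-189662775), a number reached by 14.6% of the clusters. The downstream clusters were 13.4 kb apart between summits and joined when gaps of up to 25 kb were allowed.

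The TP63 window held 36.5 peaks per Mb, against 4.04 on chromosome 3 and 4.49 on chromosomes 1 to 22 and X. When the chromosomes were cut into 6269 adjoining tiles of the same 466 kb, 69 tiles (1.10%, 95% Wilson interval 0.871 to 1.39%) held at least 17 peaks. The median tile held 0 and the fullest 33. Since the locus was picked with its peaks in view, this places the window among the tiles and is not a test.

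**Figure D5:**
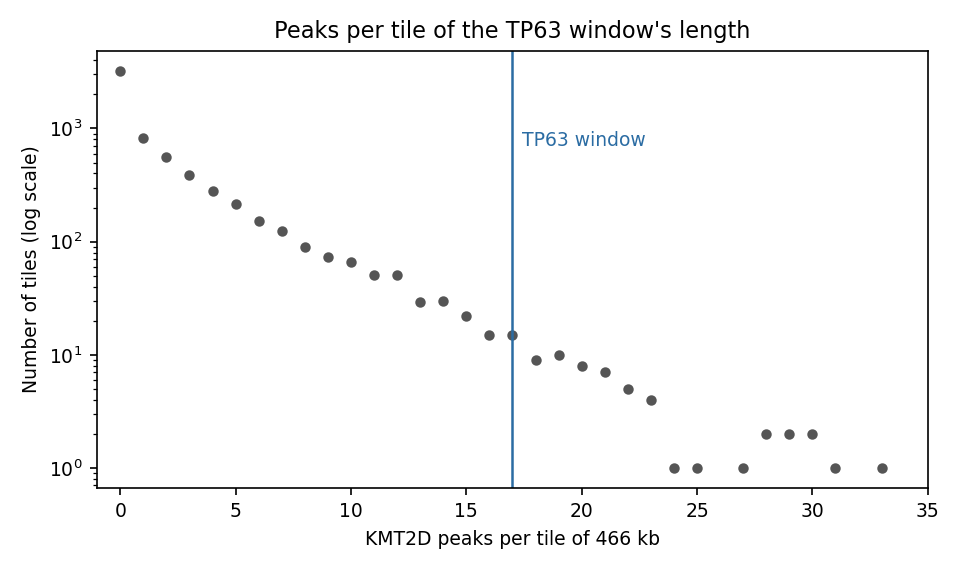
Number of 466 kb tiles (y axis, log scale) that held each number of KMT2D peaks (x axis), for 6269 tiles of chromosomes 1 to 22 and X. The line marks the 17 peaks of the TP63 window, a number that 69 tiles reached or passed.

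SOX2 had 2 peaks, far apart. The stronger was 88 kb upstream of the gene, at chr3:181342067-181342400, with 41 fragments (29.4 to 55.6), a fold enrichment of 6.63 (4.87 to 8.85) and a q-value of 6.2e-08. A value this high was reached by 15.4% of the list. The peak at the 3′ end of SOX2, at chr3:181432149-181432612, had 15 fragments (8.40 to 24.7), a fold enrichment of 3.11 (1.95 to 4.83) and a q-value of 1, where the local background gives 3.04 fragments. Only 1 of the 2 SOX2 peaks passed a q-value of 0.05. The local background, at 1.37 and 1.05 times that of the genome, was not raised as it was at TP63. The summits were 89.9 kb apart and neither peak was in a stitched cluster. The SOX2 window held 9.90 peaks per Mb, fewer than the TP63 window but more than the 4.04 of chromosome 3. Tiles of its 202 kb held a mean of 0.905 peaks and 68.5% of them held 0, while 18.8% of 14479 tiles of 202 kb held at least 2 peaks (95% Wilson interval 18.2 to 19.4%).

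The limit of 100 kb mattered little at TP63. The outermost peaks inside the window, given above, lay 57.4 kb and 52.6 kb from its edges. Just outside were a peak 138 kb from the left edge, with a fold enrichment of 4.77 and 35 fragments, and a peak 6.66 kb from the right edge, with 5.54 and 40 fragments. At SOX2 the upstream peak lay 12.3 kb inside the left edge. The nearest peaks outside were 1305 kb to the left, with a fold enrichment of 3.44, and 369 kb to the right, with 4.83.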

How the data were processed

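The data were 1 KMT2D ChIP-seq library of KMT2D-WT SCC23 cells, grouped by its label. Per its methods, the study aligned reads with Bowtie2 to hg19 (GRCh37), used the unique ones and called peaks by p-value in MACS2. The list deposited by the authors gives, for each peak, the fold enrichment (a ratio), −log10 p-values and −log10 q-values at the summit, and a score that repeats the −log10 p-value. The highest p-value was 0.00984.

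Fragment numbers and local backgrounds were solved from fold enrichment and p-value, whose joint solution must be a whole number of fragments. With ChIP scaled by 0.381 and 1.10 scaled fragments (2.88 ChIP fragments) as the genome-wide background, 100% of peaks were solved, and backgrounds fell on steps of a fragment length of 183.4 bp. On 3000 simulated peaks the exact number was recovered for 100.00%. These were made with the same formula that was solved, so this checks the solving and not whether the formula fits the list. The list also held backgrounds above those simulated. Read depth was not given by the list.

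TP63 and SOX2, and the lists used, were chosen with earlier results of these data known. All TP63 and SOX2 peaks were described. Those named were the 5 of highest fold enrichment, the widest, those nearest to the start, the internal promoter and the end of the gene and those at the window edges. A further 3 TP63 peaks were named after their values were seen. Other squamous genes were not analysed here for want of a GRCh37 annotation. Alternatives were q-value thresholds, flanks, merging, stitching gaps and the genome-wide background. The versions were matplotlib 3.10.9, pandas 2.3.3, scipy 1.17.1, numpy 2.4.6 and Python 3.11.15.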

Additional observations from a re-analysis of the deposited data

How the results depend on the processing

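Of 38 alternative values for 10 results, 31 stayed within the range set for their result and 7 moved. The results are counts, medians, a highest value and a share, which have no direction to change. Counts were held to 1.5 times, the share of tiles to its Wilson interval and the medians to the counting interval of the middle peak. The 4 alternatives on local background were chosen after seeing the data. The SOX2 window held 1 peak at a q-value of at most 0.05 or 0.01 and 1 with a flank of 50 kb, against 2. The TP63 window held 15 peaks at either q-value, 17 and 20 with flanks of 50 and 200 kb, and 13 when peaks up to 1 kb apart were merged. It held 3 without peaks of raised local background. Against the genome-wide background the median fold enrichment of TP63 peaks was 10.5 and the highest 35.5, in place of 4.66 and 14.5. Among tiles, 0.274% held as many peaks with a q-value of at most 0.05 as the TP63 window, against 1.10%. No paired analysis was possible because a single library was analysed. With a single library, which of the weaker peaks would recur cannot be shown.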

Other observations

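Beyond the window, on the side of P3H2, KMT2D peaks went on at a wider spacing. In the next 100 kb were 3 peaks, with summits 107, 141 and 180 kb past the end of TP63. They had 40, 32 and 34 fragments and fold enrichments of 5.54, 4.71 and 4.76, with q-values of 1.6e-06, 0.00022 and 0.00046. Their local background, at 1.64 to 1.76 times the genome-wide level, was below that of each of the 9 downstream peaks of the window.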
